A study of Mus musculus and Rattus norvegicus with 11 samples.

Results

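Collagen chain genes were taken as every gene whose symbol is Col, a type number, the letter a and a chain number, such as Col1a1, a rule that uses names and no measured value. The rule found 44 genes among 31053 mouse features and 44 among 32883 rat features. The 44 rat features carried 43 symbols because Col23a1 stood on 2 gene identifiers, and rat Col1a2 was not analysed here. Levels were followed in every annotated cell type of peripheral nerve and in 4 groups of droplet 3' single-cell RNA libraries.

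The mouse groups were undiseased C57BL/6 mice (libraries 1, 3 and 4), NOD control mice (libraries 1, 2-1 and 2-2) and mice named ICAM-1-/-NOD in the series text, which ties them to chronic autoimmune neuritis, and ICAM-1-1/-NOD in the sample labels (libraries 1 to 3). The latter is taken here as the same name, an Icam1 knockout on the NOD background. NOD mice are inbred and known for autoimmune diabetes. The last group was naive Lewis rats (libraries 1 and 2). Mouse nerves (sciatic nerve, brachial plexus) were digested with an enzyme mixture that included a collagenase, and live cells were sorted after myelin removal; rat sciatic nerves were digested with collagenase and dispase, and cells were not sorted. Ages and sexes, and whether libraries came from separate animals, were not given in the sources used here, so p-values measure only the spread between these samples, which may be technical. Control libraries 2-1 and 2-2 share a number and were counted as 1 sample, NOD control 2.

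Collagens are secreted proteins built from chains wound into a helix. Fibrillar types I, III and V form the fibrils of the endoneurium around axons and of the epineurium around the nerve, type IV forms the network of the basement membranes that coat Schwann cells and vessels, and type VI forms beaded filaments between them. Fibril-associated chains decorate fibrils, multiplexins lie in the basement membrane zone, and a chain needs prolyl and lysyl hydroxylases, chaperones, proteinases and cross-linking oxidases before it works in a fibril.

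Levels are given as UMIs per 1000000 UMIs of a cell type in a sample (CPM). Of the mouse collagen UMIs, more lay in the cells named nmSC than in any other type. By the lists that follow, these cells carried fibroblast transcripts rather than pan-Schwann transcripts. Values of a list of nonmyelinating Schwann genes are not given here. A list of 6 fibroblast genes without collagens (such as Pdgfra, Dcn and Lum) summed to between 75870 and 150900 CPM in the 10 samples, whereas 6 pan-Schwann genes summed to between 68.7 and 400.1 CPM. Sox10, the defining Schwann cell factor, was at 0 in nmSC of the 3 knockout-labelled libraries, C57BL/6 library 4 and rat library 1. The 5 endoneurial fibroblast genes (Sox9, Osr2, Wif1, Etv1, Abca9) summed to between 1098 and 2293 CPM in mouse nmSC and to 655.9 and 622.5 CPM in rat. In the cells named fibro they summed to between 27.9 and 103.9 CPM, while 5 epineurial genes (such as Pi16 and Clec3b) summed to between 6339 and 12020 CPM. The rat features held 4 of these 5 epineurial genes, so the rat epineurial sums cover 4 genes. The epineurial genes summed to between 323.7 and 838.0 CPM in mouse nmSC but to 2865 and 2516 CPM in rat nmSC, above its endoneurial sum, so the split was less clean in rat. The deposited name nmSC is used here as a name only. The cells named mySC did carry Schwann transcripts, with 3586 to 5704 CPM for the pan-Schwann list.

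Libraries held between 571042 and 6631004 UMIs in mouse, and 19074026 and 17958844 in rat. Icam1, the targeted gene, was counted at 248.0, 261.5 and 254.5 CPM over all annotated cells of the knockout-labelled libraries. It was at 94.5, 44.4 and 56.0 CPM in NOD control libraries 1, 2-1 and 2-2, so the pooled transcript goes against the label. Cell make-up differed: B and T cells were 1334 of 1540, 1542 of 1784 and 1566 of 1803 annotated cells under the label. In NOD control 1 they were 49 of 1400. NOD control 2 held 1184 of them, over libraries with 1985 and 1962 annotated cells. The part of cell make-up in the Icam1 level was not tested. A 3' tag lies outside many targeted alleles, and which part was deleted is not given in the sources used here. C57BL/6 library 1 and NOD control 1 stood apart in mitochondrial transcripts, with 11110 and 6279 CPM in nmSC for 8 mitochondrial genes against 23580 to 36280 CPM in the other mouse samples. In mouse 162 barcode sequences occurred in more than 1 library, and in rat 59. B and T cells, which are not known to make fibrillar collagen, were used to gauge the level of free RNA. Doublets, and Col6a4 counted in B cells, can also enter this level. All collagen chains together reached 65.7 to 73.4 CPM in these cells of the knockout-labelled libraries, 20.2 to 396.6 CPM in C57BL/6, 1016 and 736.0 CPM in NOD control, and 1808 and 2802 CPM in rat. The value of NOD control 1 rests on 29 UMIs in 49 cells, 11 of them of Col1a1.

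All 44 mouse genes had at least 1 UMI in annotated cells, but 9 had fewer than 10 (Col4a3, Col7a1, Col9a1, Col10a1, Col13a1, Col19a1, Col22a1, Col24a1 and Col25a1) and 11 had 10 to 99. Col1a1, Col1a2 and Col3a1 gave 71.9% of the 109762 mouse collagen UMIs. In rat, 5 features had no UMI, 7 had fewer than 10, and the 3 most abundant gave 93.8% of 798251 collagen UMIs. Because each UMI marks 1 molecule tagged at its 3' end, gene length does not enter CPM; whether chains were captured evenly at their 3' ends was not tested.

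Collagen chains took a larger share of nmSC transcripts than of any other mouse type with at least 20 cells. They made up 1.42% ± 0.20 (SD, n = 3) of UMIs in C57BL/6 nmSC, 1.80% ± 0.0021 (SD, n = 2) in NOD control and 1.04% ± 0.074 (SD, n = 3) in the knockout-labelled libraries. The fibro cells followed with 1.01% ± 0.30 (SD, n = 3) in C57BL/6 and 0.839% ± 0.14 (SD, n = 2) in NOD control. In rat the order was the other way, with 3.52% ± 0.050 in fibro and 2.81% ± 0.15 in nmSC (SD, n = 2 each). The cells named mySC had 0.322% ± 0.029 (SD, n = 2) in C57BL/6, 0.456% ± 0.17 (SD, n = 2) in NOD control and 0.471% ± 0.016 (SD, n = 3) under the knockout label, and endothelial cells at most 0.156% ± 0.057 (SD, n = 2) in mouse. Cell types were named from these same counts, so differences between types are descriptions and carry no test.

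**Figure D1:**
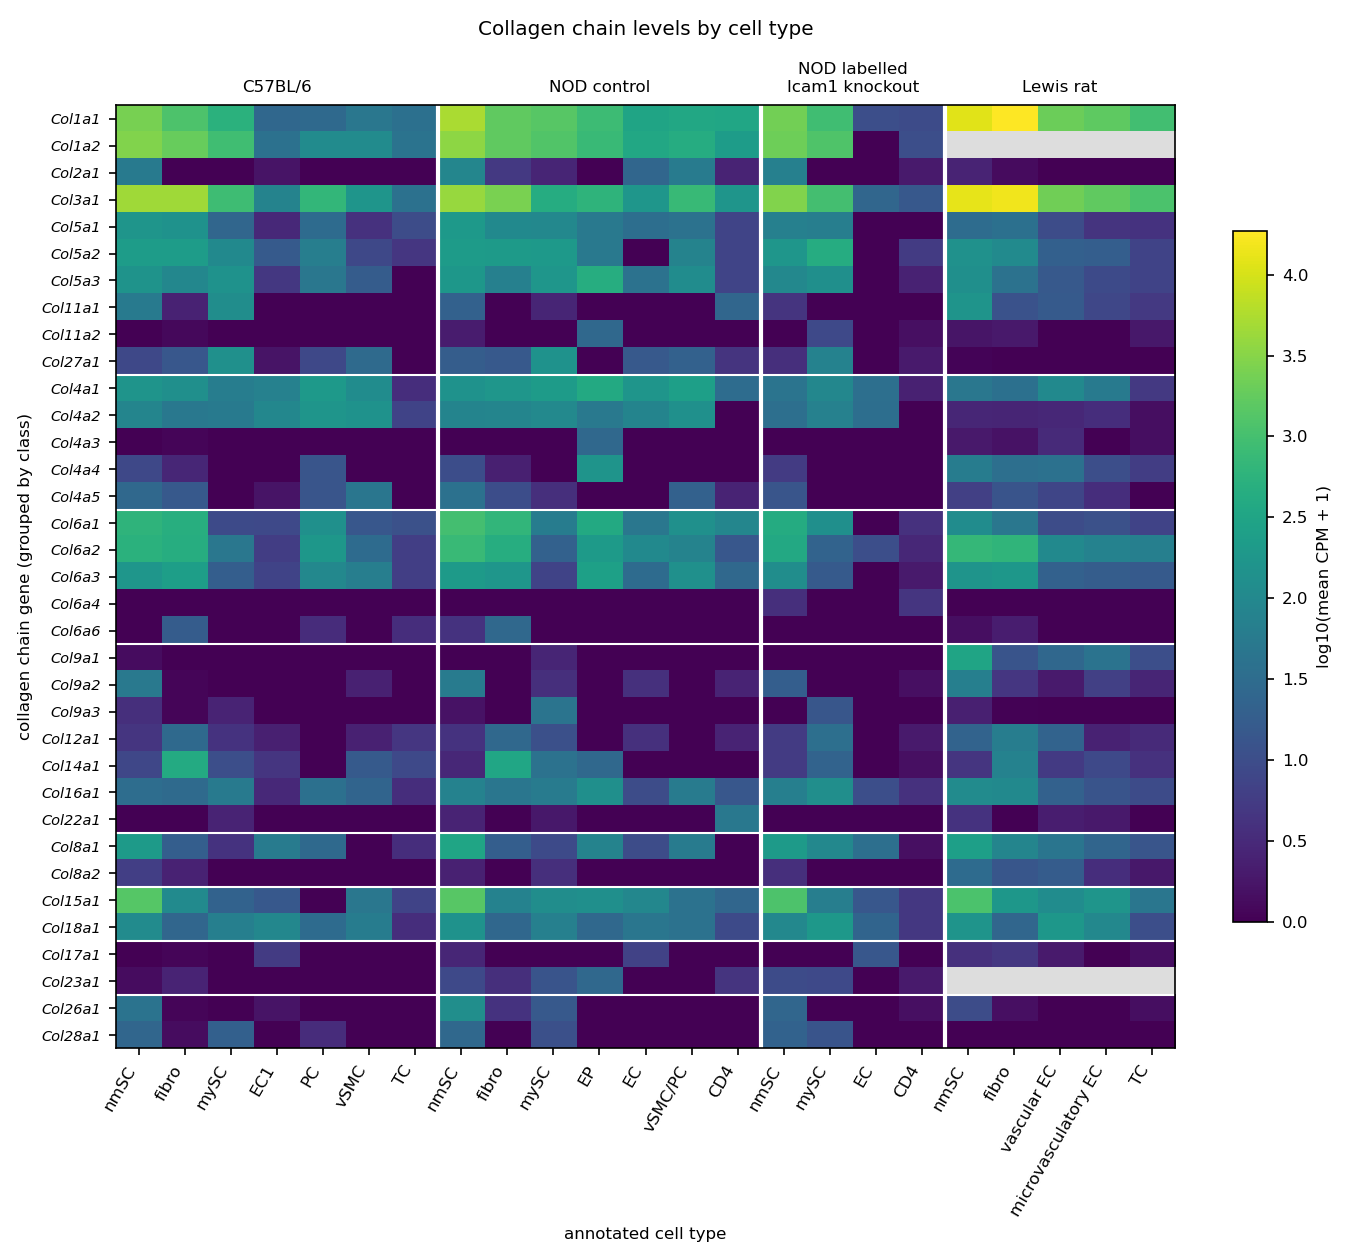
Mean level of each collagen chain gene (rows, grouped by class) in annotated cell types (columns, grouped by mouse group and rat), as log10 of mean CPM plus 1 over the samples of a group with at least 20 cells of that type. Genes with a mean of at least 20 CPM in any type are drawn, lymphocyte columns (TC, CD4) show the free RNA level, and grey marks genes not drawn for rat (Col1a2, and Col23a1 with its 2 identifiers); the Col1a1, Col1a2 and Col3a1 rows are the brightest and Col15a1 is bright in nmSC of all 4 groups.

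Fibrillar chains led in every fibroblast and Schwann type. In C57BL/6 nmSC, Col3a1 (type III) was at 3042, 4960 and 5877 CPM in libraries 1, 3 and 4, Col1a2 at 2189, 2864 and 3692 CPM, and Col1a1 at 3057, 1996 and 2457 CPM. In NOD control nmSC, Col1a1 came first, with 5241 and 5185 CPM, then Col3a1 with 3836 and 4350 CPM and Col1a2 with 3617 and 3400 CPM. The knockout-labelled libraries had Col3a1 at 3008, 3174 and 2428 CPM and Col1a1 at 2704, 2254 and 1996 CPM. Col3a1 and Col1a1 of rat nmSC stood higher on this scale, with 13190 and 12270 CPM and with 12120 and 11190 CPM.

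The balance between chains differed among libraries within a group. Type I collagen usually joins chains of Col1a1 and Col1a2, and the ratio of Col1a1 to Col1a2 UMIs in nmSC was 1.45 and 1.53 in NOD control and 1.16, 1.20 and 0.98 under the knockout label. In C57BL/6 it was 1.40 in library 1 but 0.697 and 0.666 in libraries 3 and 4. The ratio of Col3a1 to Col1a1 showed the same split, with 0.995 in C57BL/6 library 1 against 2.49 and 2.39 in libraries 3 and 4, and 0.732 and 0.839 in NOD control. In fibro of C57BL/6 the Col3a1 to Col1a1 ratio was 2.04, 3.92 and 5.38, again lowest in library 1. The labels name 2 sequencers without saying which library ran on which, and the part of the sequencer or of RNA quality in this split was not tested.

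In fibro, Col3a1 was at 2192, 4784 and 6512 CPM in C57BL/6 and at 1989 and 3057 CPM in NOD control. Col1a2 reached 1184, 2217 and 2292 CPM in C57BL/6 fibro and 1553 and 1791 CPM in NOD control, and Col1a1 reached 1072, 1219 and 1209 CPM and 1550 and 1794 CPM. Rat fibro held the highest levels measured, with 18630 and 18290 CPM for Col1a1 and 15170 and 14810 CPM for Col3a1. The cells named mySC had the same leading chains at lower levels: Col1a2 was at 1128 and 691.9 CPM in C57BL/6 libraries 1 and 3 (43 and 355 cells), 1757 and 774.0 CPM in NOD control (20 and 740 cells) and 1207, 1074 and 1351 CPM under the knockout label (46, 28 and 50 cells). In NOD control, Col1a1 was at 2062 and 784.8 CPM in mySC and at 385.3 and 148.9 CPM in lymphocytes, the free RNA level.

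Several chains stood out in 1 cell type, by the rule of at least 10 UMIs and at least 4 times the CPM of every other type of the group. Col15a1, a multiplexin of the basement membrane zone, met it in nmSC of all 4 groups. Its level there was 1344, 1306 and 1506 CPM in C57BL/6, 1570 and 1330 CPM in NOD control, 1195, 1185 and 1173 CPM under the knockout label, and 1193 and 1124 CPM in rat. The next highest type lay 12.9, 11.0, 18.1 and 6.40 times lower in these groups; fibro, the next type in C57BL/6 and rat, had too few cells to enter under the knockout label. Col15a1 thus ran from 1124 to 1570 CPM over all 10 nmSC samples, a narrower range than the 1996 to 5241 CPM of Col1a1 in the 8 mouse samples.

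Chains best known from cartilage also met the rule in nmSC of some groups. Col2a1 (type II) was at 45.3, 36.0 and 90.6 CPM in C57BL/6 nmSC, at 50.6, 107.7 and 54.0 CPM under the knockout label, and at 92.8 and 86.6 CPM in NOD control, where it did not meet the rule because 3 UMIs in the cells named vSMC/PC gave 59.6 CPM. Col9a2, a fibril-associated type IX chain, was at 52.8, 36.0 and 67.9 CPM in C57BL/6, 67.7 and 48.8 CPM in NOD control, and 80.7 and 57.2 CPM in rat. Col9a1, its partner, differed between the species: rat nmSC had 355.4 and 268.0 CPM, whereas all annotated mouse cells together held 5 UMIs of the gene. Col2a1 went the other way, with only 1.46 and 1.79 CPM in rat nmSC. Col11a1, a minor fibrillar chain, was at 169.6 and 156.1 CPM in rat nmSC, where it met the rule. Col26a1, a small chain not assigned to the fibrillar or network classes, was at 22.7, 56.2 and 45.3 CPM in C57BL/6, 170.5 and 86.6 CPM in NOD control and 8.20 and 9.36 CPM in rat. Col8a1, a short-chain network collagen of vessel walls and the cornea, met the rule in NOD control nmSC only, at 337.3 and 307.6 CPM. Col6a2 and Col6a3, type VI chains, met it in nmSC of the knockout-labelled libraries only, where fibro cells were too few to be compared. The part of species differences in the annotation of 3' ends was not tested.

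Of the fibril-associated chains, Col14a1 and Col12a1 met the rule in fibro. Col14a1, which binds type I fibrils, was at 423.3, 399.4 and 405.1 CPM in C57BL/6 fibro, 378.9 and 298.1 CPM in NOD control and 78.3 and 76.8 CPM in rat, and was 27.3, 8.55 and 9.84 times lower in the next type. Col12a1 met it in C57BL/6, with 33.4, 18.0 and 30.2 CPM. Of the type VI chains Col6a6 and Col6a5 met it. Col6a6 was at 11.1, 19.5 and 18.1 CPM in C57BL/6 fibro and 37.9 and 16.4 CPM in NOD control. Col6a5 was at 19.5 and 16.5 CPM in C57BL/6 libraries 1 and 3 and at 0 in library 4.

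In mySC, Col27a1, a fibrillar chain, met the rule in all 3 mouse groups. It was at 161.2 and 113.2 CPM in C57BL/6 libraries 1 and 3, at 229.1 and 73.8 CPM in NOD control (3 and 41 UMIs) and at 50.3, 91.4 and 90.9 CPM under the knockout label (4, 4 and 7 UMIs). Col28a1, known from the basal lamina around Schwann cells, had 12 UMIs (38.8 CPM) in mySC of C57BL/6 library 3 and 11 UMIs (19.8 CPM) in NOD control 2. It was at 0 in mySC of C57BL/6 library 1 and NOD control 1. In nmSC it was at 37.7 and 35.4 CPM in C57BL/6 libraries 1 and 3 and at 31.3 and 21.9 CPM (25 and 22 UMIs) in NOD control. Col11a1 was at 120.9 and 122.9 CPM in C57BL/6 mySC (3 and 38 UMIs), at 0 and 3.60 CPM in NOD control mySC and at 0 in mySC of the 3 knockout-labelled libraries. This difference was not tested, because C57BL/6 library 4 held 7 such cells.

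Vascular types carried basement membrane chains, as other stromal types did. In C57BL/6, type IV chains together averaged 397.5 CPM in the cells named PC, 324.5 in vSMC and 166.5 in endothelial cells. They averaged 284.5 CPM in nmSC, 198.9 in fibro and 115.4 in mySC. In C57BL/6 endothelial cells (EC1), Col18a1, the multiplexin that gives rise to endostatin, was at 103.0, 74.0 and 108.4 CPM and Col4a2 at 112.4, 57.1 and 108.4 CPM. Col3a1 was at 18.7, 224.0 and 0 CPM there, so its mean rests on library 3. The cells named PC, which carried pericyte genes such as Rgs5, of C57BL/6 libraries 1 and 3 had Col4a1 at 208.1 and 200.4 CPM and Col6a2 at 208.1 and 150.3 CPM, beside Col3a1 at 286.1 and 1032 CPM. The cells named vSMC, with smooth muscle genes such as Myh11, had Col4a2 at 164.2 and 131.9 CPM and Col4a1 at 119.4 and 116.9 CPM, beside Col3a1 at 89.6 and 242.9 CPM. In NOD control, 69 cells of sample 2 named vSMC/PC had Col3a1 at 755.0, Col1a2 at 437.1 and Col1a1 at 357.6 CPM. Rat vascular endothelial cells had Col18a1 at 201.4 and 162.7 CPM and the rat cells named microvasculatory EC had Col15a1 at 156.0 and 173.3 CPM. Col3a1 and Col1a1 led both rat types, with 1354 to 2237 CPM, but rat lymphocytes held 903.0 and 1383 CPM of Col3a1 and 739.1 and 1151 CPM of Col1a1.

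The 53 cells named EP of NOD control 2 carried 2888 CPM of 6 perineurial genes, such as Slc2a1 and Cldn1. They had Col1a1 at 840.1 CPM (32 UMIs), Col1a2 at 787.6 and Col3a1 at 603.8 CPM. Beside these they had Col5a3, a type V chain, at 446.3 CPM (17 UMIs) and Col4a4, a type IV chain, at 157.5 CPM (6 UMIs), the highest mean CPM of each gene in any mouse type. These values come from 1 sample and a few UMIs. The 21 cells named lymph of C57BL/6 library 3, with lymphatic endothelial genes such as Prox1, gave 6 UMIs of Col18a1, 3 of Col23a1 and 3 of Col4a2. Outside nerve stroma, Col6a4 met the rule in B cells of the knockout-labelled libraries, with 15, 7 and 10 UMIs (35.0, 17.3 and 26.9 CPM); NOD control 2 had 5 UMIs (8.50 CPM) in the B cells of its libraries, and C57BL/6 none.

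Levels in nmSC and fibro of the same library were set against each other in the 5 C57BL/6 and NOD control samples and the 2 rat libraries. Of the 44 genes, 14 had at least 10 UMIs over both types in all 7 samples. Col15a1, Col18a1, Col5a3 and Col8a1 were higher in nmSC in all 7, by log2 ratios of 2.60 to 5.11, 1.99 to 4.06, 0.71 to 1.82 and 1.58 to 4.94. Col14a1 was higher in fibro in all 7. The other 9 of these 14 (Col1a1, Col3a1, Col4a1, Col4a2, Col5a1, Col5a2, Col6a1, Col6a2 and Col6a3) went both ways. Mouse Col1a2 was higher in nmSC in all 5 mouse samples. Col1a1 shows the split by species, with log2 ratios from 0.71 to 1.76 in the mouse samples and -0.71 and -0.62 in rat.

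**Figure D2:**
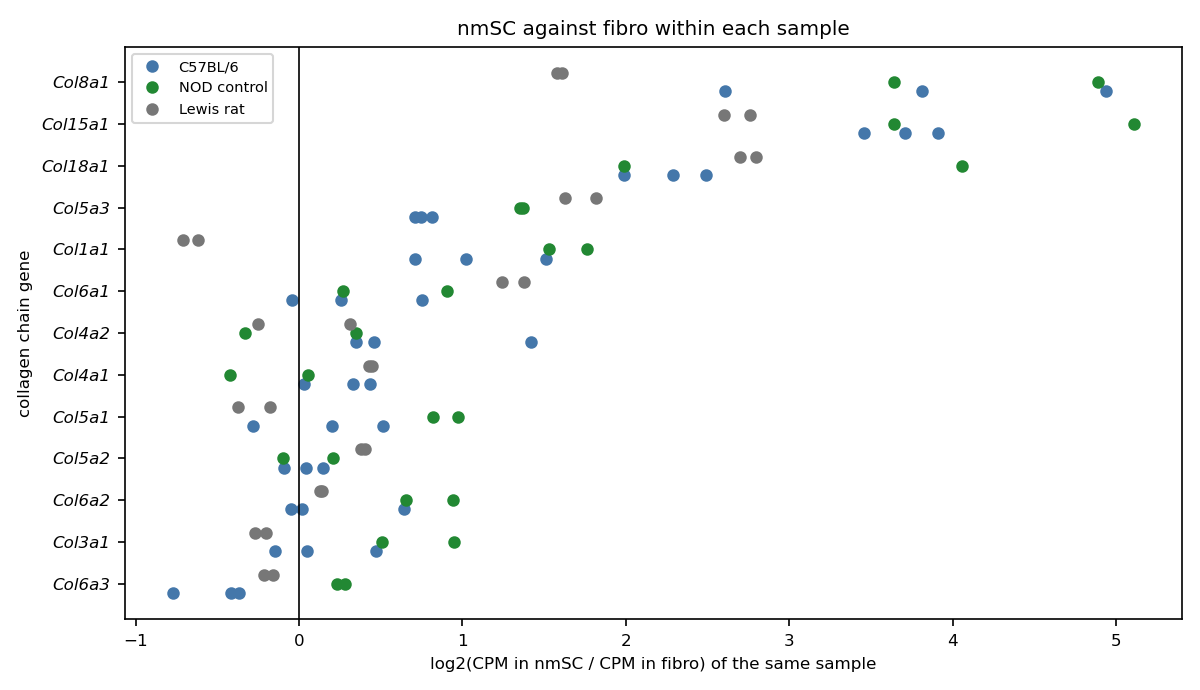
Log2 of the CPM in nmSC over the CPM in fibro of the same sample (horizontal axis) for the 13 collagen chain genes with UMIs in both types of all 7 samples (vertical axis), with 1 point per sample: C57BL/6 (n = 3), NOD control (n = 2) and Lewis rat (n = 2). All points of Col8a1, Col15a1, Col18a1 and Col5a3 lie right of the line at 0, and the 2 rat points of Col1a1 lie left of it.

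The partner chains of 1 molecule were not counted evenly in rat. Type VI collagen needs the chains of both Col6a1 and Col6a2, and the ratio of their UMIs in nmSC was between 0.885 and 1.36 in the 8 mouse samples but 0.170 in each rat library. Col4a1 and Col4a2, which form the common type IV molecule, had a ratio of 1.20 to 2.03 in the mouse nmSC samples with at least 10 UMIs of each and 17.1 in rat library 1. On the mouse genome (mm10, GENCODE M21) Col4a1 and Col4a2 start 21 bases apart on chromosome 8, at 11312826 on the minus and 11312805 on the plus strand.

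Against NOD control, collagen chains were lower in nmSC of the knockout-labelled libraries, the comparison the series sets up for autoimmune neuritis (n = 3 and 2). The knockout-labelled libraries held only 49, 84 and 54 nmSC cells, against 982 and 1221 in NOD control 1 and 2. Of the 44 genes, 16 passed the filter on low counts, 6 fell and 0 rose (edgeR quasi-likelihood test, Benjamini-Hochberg adjusted p under 0.05); over all genes tested, 1.52% fell and 2.38% rose. The 16 estimates were all negative, with a median log2 change of -0.80 against 0.02 over the 2101 genes tested. Those that fell were the type VI chains Col6a1 and Col6a2, the type I chain Col1a1, the basement membrane chain Col4a1, the type V chain Col5a1 and Col26a1. With the same number of cells in every sample, 11 chains were tested and 2 fell, Col1a1 and Col6a1.

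Col6a1 (chr10:76708792-76726168) was at 1051 and 874.1 CPM in NOD control nmSC and at 384.9, 455.8 and 404.6 CPM under the knockout label. The groups did not overlap, and the log2 change was -1.23 ± 0.19 (SE, edgeR adjusted p = 0.00574). Its partner Col6a2 (chr10:76595762-76623630) was at 771.0 and 811.4 CPM against 374.8, 422.7 and 323.7 CPM, again without overlap, with a change of -1.09 ± 0.19 (edgeR adjusted p = 0.0109). Here and below, lack of overlap is a weak sign with so few samples, and its share over all genes tested is not given. Col6a3, the third type VI chain, was at 191.8 and 226.0 CPM against 121.5, 107.7 and 134.9 CPM, and did not pass (-0.82 ± 0.27, edgeR adjusted p = 0.114).

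Col1a1 (chr11:94936224-94953042) was at 5241 and 5185 CPM against 2704, 2254 and 1996 CPM, a change of -1.19 ± 0.21 (edgeR adjusted p = 0.0112). Col5a1 (chr2:27886425-28039514), whose chain sets fibril diameter, was at 180.5 and 215.0 CPM against 81.0, 91.2 and 40.5 CPM (8, 11 and 3 UMIs), a change of -1.44 ± 0.32 (edgeR adjusted p = 0.0298). Every control sample lay above every knockout-labelled one for both genes. Col4a1 (chr8:11198423-11312826) was at 141.7 and 155.3 CPM against 40.5, 49.7 and 40.5 CPM, which rest on 4, 6 and 3 UMIs, with a change of -1.77 ± 0.34 (edgeR adjusted p = 0.0169). Col26a1 (chr5:136741759-136883209) was at 170.5 and 86.6 CPM against 20.3, 0 and 54.0 CPM, or 2, 0 and 4 UMIs, and lay at the threshold with -2.63 ± 0.68 (edgeR adjusted p = 0.0499).

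**Figure D3:**
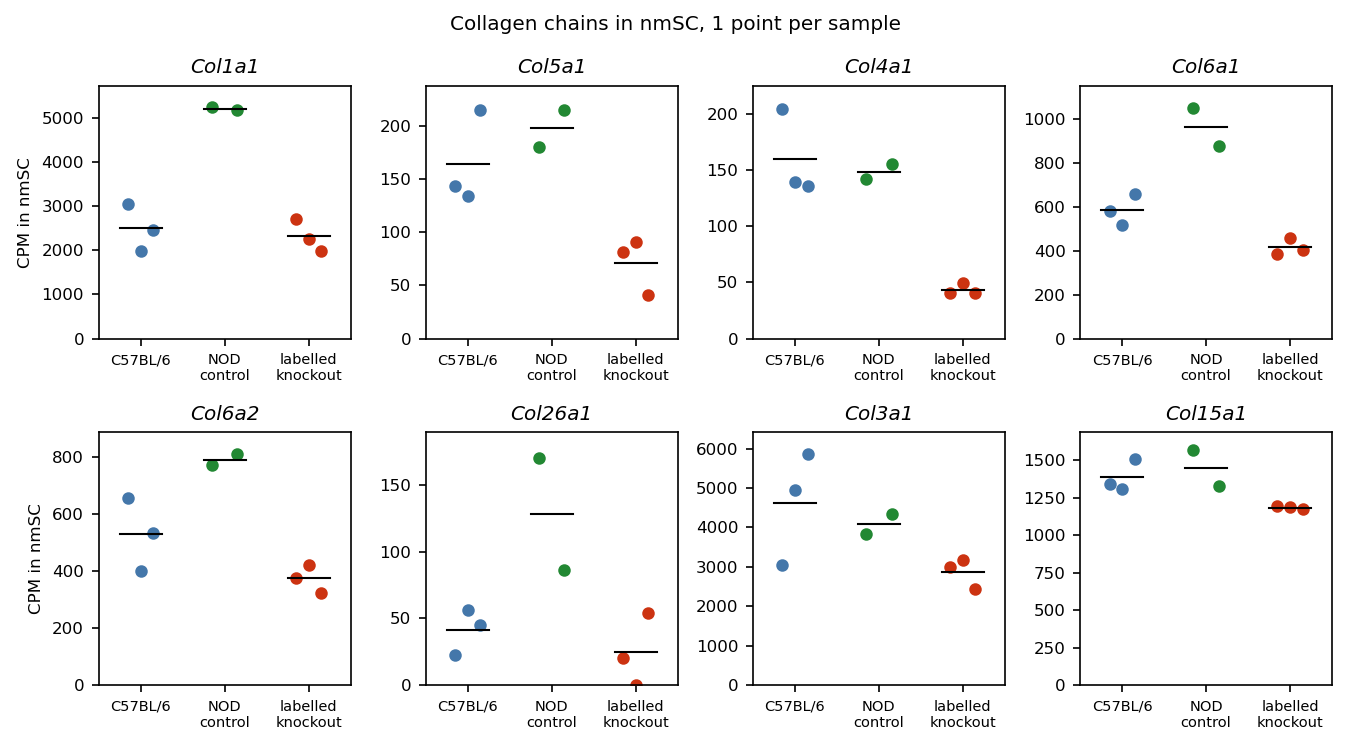
CPM in nmSC (vertical axes, from 0) of 8 collagen chain genes, with 1 point per sample and a line at the group mean, in C57BL/6 (n = 3), NOD control (n = 2) and the libraries labelled Icam1 knockout (n = 3). For the 6 genes that fell (Col1a1, Col5a1, Col4a1, Col6a1, Col6a2 and Col26a1) the knockout-labelled points lie below both NOD control points; C57BL/6 points lie near the knockout-labelled ones for Col1a1 and near NOD control for Col4a1.

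The 10 tested chains that did not pass ran from -0.30 ± 0.38 for Col2a1 to -0.89 ± 0.36 for Col5a3. Col1a2 missed the threshold closely, at -0.77 ± 0.20 (edgeR adjusted p = 0.0546), and Col3a1 was at -0.53 ± 0.21 (edgeR adjusted p = 0.18). Col15a1, which met the rule in nmSC of all 4 groups, was at -0.31 ± 0.18 (edgeR adjusted p = 0.376). By class, 2 of 7 tested fibrillar chains, 2 of 3 type VI chains, 1 of 1 type IV chains, 0 of 2 multiplexins and 0 of 1 fibril-associated chains fell.

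The calls depended on having all 3 knockout-labelled libraries. Without library 1 or 2 of that label 0 of the 20 tested chains passed, and without library 3 only Col26a1 did (edgeR adjusted p = 0.0485), while those fits tested 5965, 5723 and 5760 genes in place of 2101. Col6a1 was at -1.24, -1.33 and -1.23 without library 1, 2 or 3, and Col1a1 at -1.38, -1.19 and -1.10. Over all alternatives with an adjusted p, Col4a1 ran from -1.96 to -1.73 and Col6a2 from -1.29 to -0.99. Col5a1 and Col26a1 varied more, from -1.97 to -1.23 and from -3.8 to -1.91. Without NOD control 1 the count was 9 and without NOD control 2 it was 10, but the lone control is then assumed to vary like the knockout-labelled libraries, which alone give the spread. DESeq2 called 4 chains, Col1a1, Col1a2, Col6a1 and Col6a2, and gave no adjusted p for Col4a1, Col5a1 and Col26a1. T cell markers moved with the label: 5 T cell genes summed to 192.4, 281.8 and 256.3 CPM in nmSC of the knockout-labelled libraries against 5.02 and 52.8 CPM in control, and immediate early genes to 15210, 16200 and 16060 CPM against 11690 and 8350 CPM; their part in the result was not tested. The fibroblast list without collagens was 150900, 127600 and 130400 CPM under the label and 142000 and 104100 CPM in control. All collagen chains together averaged 18030 CPM in control nmSC and 10360 CPM under the label. In lymphocytes they were at 1016 and 736.0 CPM in control and at 73.4, 65.7 and 72.8 CPM under the label. The part of free RNA in the result was not tested.

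Upstream sequence is shown for Col5a1 and Col6a2, which fell in nmSC, and for Col3a1, which rose in mySC. It is also shown for Col15a1, which met the rule of at least 4 times the CPM of every other type in nmSC of all 4 groups. Each line gives the 100 bases before the start site that RefSeq lists (build GRCm38.p6), read 5′ to 3′ on the gene's strand, with capitals marking a GC box (GGGCGG on either strand). The windows are chr2:27886325-27886424 (plus), chr10:76623631-76623730 (minus), chr1:45311438-45311537 (plus) and chr4:47207912-47208011 (plus), and none overlaps an annotated exon. Col6a2 has another RefSeq start, whose window (chr10:76623405-76623504) overlaps an exon, holds 3 GC boxes and is not printed.
Col5a1: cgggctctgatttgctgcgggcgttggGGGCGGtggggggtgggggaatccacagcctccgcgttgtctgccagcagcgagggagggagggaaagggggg
Col6a2: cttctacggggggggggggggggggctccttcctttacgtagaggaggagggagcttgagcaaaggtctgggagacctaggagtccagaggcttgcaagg
Col3a1: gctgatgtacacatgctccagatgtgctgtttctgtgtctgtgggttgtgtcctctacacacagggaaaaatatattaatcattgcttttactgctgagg
Col15a1: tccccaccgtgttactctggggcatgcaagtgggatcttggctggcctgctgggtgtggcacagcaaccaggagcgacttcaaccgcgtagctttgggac
The promoter table held 38 windows for 35 of the 44 genes. GGGCGG was in 47.4% of these windows and in 24.7% of all 32851 windows of this length. TATAAA was in 5.26% against 5.56%, and CCAAT in 10.5% against 18.9%, each on either strand. None of the motifs overlapped another in the 4 windows printed, and TATAAA and CCAAT were in none of them.

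In mySC the picture was mixed. Of 8 chains that passed the filter, 2 rose and 1 fell (edgeR, n = 3 and 2), beside 5.61% of the 1711 genes tested that rose and 5.79% that fell. Col3a1 (chr1:45311538-45349706) was at 458.2 and 419.4 CPM in NOD control mySC and at 1081, 936.5 and 896.1 CPM under the knockout label, a rise of 0.96 ± 0.28 on the log2 scale (edgeR adjusted p = 0.0253). Col5a2 (chr1:45374321-45503282), its neighbour on chromosome 1 and a type V chain, was at 229.1 and 154.8 CPM against 364.6, 456.8 and 480.5 CPM, a rise of 1.16 ± 0.34 (edgeR adjusted p = 0.0273). Col4a1, of the Schwann cell basement membrane, was at 229.1 and 203.4 CPM against 125.7, 91.4 and 64.9 CPM, with a change of -1.37 ± 0.39 (edgeR adjusted p = 0.0253). None of the 3 genes overlapped between groups, but the share of the 1711 genes tested that do so is not given here. NOD control 1 held 20 such cells with 6, 3 and 3 UMIs of these genes.

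These 3 calls depended on the tool and on single samples. All 3 were lost with DESeq2 (adjusted p = 0.263, 0.431 and 0.706) and without NOD control 2 (0.208, 0.487 and 0.690), where the lone control is assumed to vary like the other group, as well as without library 2 or 3 of the knockout label (0.0612 to 0.158); without library 1 of that label Col3a1 was lost (0.116). The 5 other chains tested were Col1a1 (-0.36 ± 0.30), Col1a2 (0.13 ± 0.28), Col5a3 (-0.82 ± 0.37), Col6a1 (1.26 ± 0.61) and Col18a1 (1.15 ± 0.43). Myelin genes differed with the label in the same cells: 7 myelinating Schwann genes summed to 35360 and 51650 CPM in control and to 10550, 6556 and 6597 CPM under the label, and T cell genes to 0 and 54.0 CPM against 176.0, 274.1 and 324.7 CPM. In mySC of C57BL/6 libraries 1 and 3 the myelin genes summed to 6850 and 6260 CPM, so NOD control stood apart from both other mouse groups. The part of the myelin and T cell genes in the result was not tested. Fibroblast genes without collagens were 1757 and 5461 CPM in control and 1911, 1622 and 1377 CPM under the label, and Col3a1 of lymphocytes was 105.1 and 179.7 CPM against 14.6, 13.5 and 11.2 CPM.

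The change with the label differed between nmSC and mySC for 5 of 14 chains tested, beside 2.06% of all 2429 genes whose difference was called in this direction (edgeR, cell type by label interaction with the sample as a block). In all 5 the change in nmSC lay below that in mySC. The difference was -2.49 ± 0.52 on the log2 scale for Col6a1 (edgeR adjusted p = 0.000196), -1.69 ± 0.39 for Col3a1 (0.000953), -2.92 ± 0.69 for Col8a1 (0.00137), -1.68 ± 0.44 for Col5a2 (0.00468) and -2.10 ± 0.57 for Col18a1 (0.00908). The unadjusted p-values of this fit match a normal test of estimate over SE. The spread was thus shared over genes, and a gene's own spread between samples hardly entered. Col6a1 fell in nmSC, whereas in mySC it was at 76.4 and 46.8 CPM in control and 213.7, 45.7 and 129.9 CPM under the label, groups that overlap. Of its 27 UMIs in control mySC, 26 lay in NOD control 2. Col8a1 was at 337.3 and 307.6 CPM against 162.1, 215.5 and 242.8 CPM in nmSC, and at 0 and 16.2 CPM against 75.4, 159.9 and 52.0 CPM in mySC. Col18a1 was at 126.6 and 173.2 CPM against 131.7, 82.9 and 80.9 CPM in nmSC, and at 76.4 and 64.8 CPM against 138.3, 251.3 and 168.8 CPM in mySC. The Col8a1 estimate rests on 0 and 9 UMIs in control mySC and was -7.35 without NOD control 2, against -3.37 to -2.50 in the other alternatives. With DESeq2, or without NOD control 2, 0 chains passed this test; without library 2 or 3 of the knockout label 2 and 3 did.

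**Figure D4:**
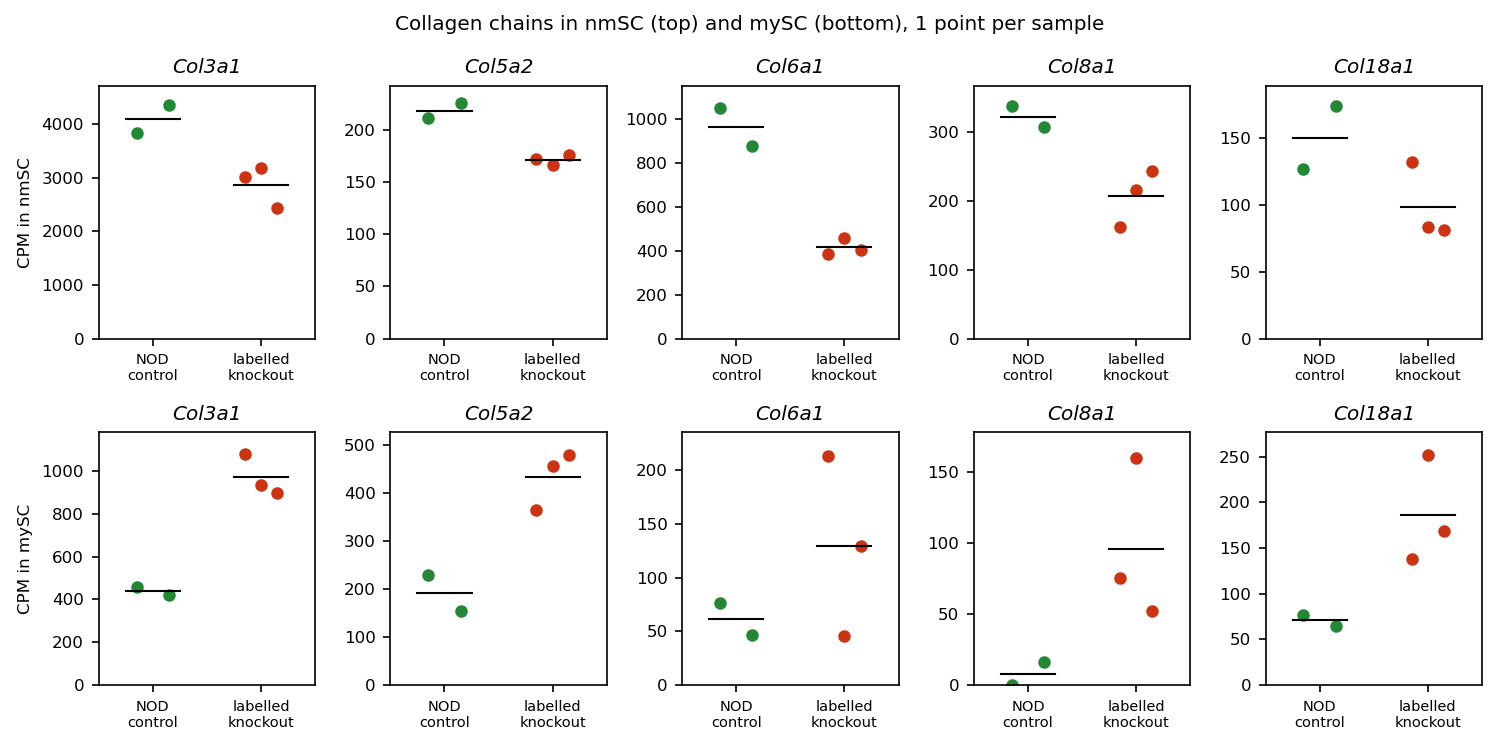
CPM (vertical axes, from 0) of the 5 chains whose change with the knockout label differed between nmSC (top) and mySC (bottom), with 1 point per sample and a line at the group mean, in NOD control (n = 2) and the libraries labelled Icam1 knockout (n = 3). The group mean under the label is lower in nmSC and higher in mySC for all 5 genes.

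No collagen chain passed the filter in endothelial cells of this comparison, where 2.6% of 538 genes were called. The 26, 26 and 30 endothelial cells of the knockout-labelled libraries held 3 UMIs each of Col4a1, Col4a2 and Col8a1 in all, 2 of Col3a1, 1 of Col1a1 and none of Col1a2. In NOD control endothelial cells Col1a2 was at 538.8 and 181.1 CPM and Col1a1 at 391.9 and 216.1 CPM. With no filter, Col1a1, Col1a2 and Col3a1 were called lower, and with the knockout-labelled libraries summed as 1 sample Col1a1 and Col1a2 were, with the spread then taken from the 2 controls alone. Lymphatic endothelial genes summed to 1225 and 17.5 CPM in control EC and to 0 in the 3 knockout-labelled libraries. Fibroblast genes without collagens were at 8915 and 4626 CPM in those control endothelial cells and at 286.2, 592.0 and 701.3 CPM under the label, and lymphocytes of control held Col1a1 at 385.3 and 148.9 CPM. The knockout-labelled libraries held 4, 8 and 8 fibro cells and 4, 5 and 5 mural cells, so these types were not tested.

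Between the strains, C57BL/6 against NOD control (n = 3 and 2), collagen chains gave 0 calls in nmSC and 0 in fibro. In nmSC 22 chains were tested beside 2.28% of 7691 genes called; 5 chains had an unadjusted edgeR p under 0.05 and DESeq2 called 0. The smallest adjusted p-values in edgeR were those of Col11a1 (1.46 ± 0.43, 0.0937), Col16a1, a fibril-associated chain (-1.32 ± 0.40, 0.11) and Col26a1 (-1.26 ± 0.38, 0.111). Col11a1 was at 75.5, 39.9 and 56.6 CPM in C57BL/6 and at 21.3 and 18.9 CPM in NOD control, without overlap. Col1a1 was at 3057, 1996 and 2457 CPM in C57BL/6 and at 5241 and 5185 CPM in NOD control, also without overlap, and its change of -0.93 ± 0.40 had an edgeR adjusted p of 0.368. Without NOD control 2 Col26a1 passed, in a fit whose spread comes from C57BL/6 alone.

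In fibro 16 chains were tested beside 1.82% of 4780 genes called, with 1 unadjusted edgeR p under 0.05, that of Col6a3 (0.69 ± 0.31, adjusted 0.438), and 0 calls by DESeq2. Their changes ran from -0.48 ± 0.38 for Col4a2 to 0.96 ± 0.53 for Col3a1, whose C57BL/6 libraries spread from 2192 to 6512 CPM. In endothelial cells 6 chains were tested and Col1a1 was lower in C57BL/6, by -2.54 ± 0.55 (edgeR adjusted p = 0.0378), beside 0.909% of 2091 genes called lower. It was at 18.7, 57.1 and 0 CPM in C57BL/6 (2, 27 and 0 UMIs) and at 391.9 and 216.1 CPM in NOD control (8 and 37 UMIs). Col1a1 of control lymphocytes, at 385.3 and 148.9 CPM, lay at a like level. The fibroblast list in these cells was 402.8, 2927 and 108.4 CPM in C57BL/6 and 8915 and 4626 CPM in NOD control. The C57BL/6 cells are those named EC1, apart from cells named EC2 and lymph, whereas NOD cells have the single name EC; lymphatic endothelial genes summed to 0, 19.0 and 0 CPM against 1225 and 17.5 CPM. The part of both lists in the result was not tested. The call was lost with DESeq2 (adjusted p = 0.0658), without C57BL/6 library 4 (0.0922) and without NOD control 2 (0.356).

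Genes that modify, secrete and cross-link collagen gave few calls. Of 33 such genes, 13 were tested in nmSC under the knockout label and 0 passed in either direction (median log2 change -0.45; 5 had an unadjusted edgeR p under 0.05 and DESeq2 called 0). Nearest were Pcolce, the enhancer of the proteinase that trims fibrillar chains (-0.62 ± 0.19, edgeR adjusted p = 0.0835), and Fkbp14, a prolyl isomerase (-1.22 ± 0.43, 0.136). Serpinh1, the collagen chaperone, was at 0.44 ± 0.20 in nmSC (0.236) and at 0.97 ± 0.31 in mySC (0.0507), where 0 of 4 passed, 2 had an unadjusted edgeR p under 0.05 and DESeq2 called 0. Between strains, P3h3, of the prolyl 3-hydroxylase family, was lower in C57BL/6 in both types tested. In nmSC it was at 75.5, 29.2 and 33.97 CPM in C57BL/6 and at 183.0 and 113.5 CPM in NOD control (-1.80 ± 0.40, edgeR adjusted p = 0.0171). In fibro it was at 33.4, 32.7 and 24.2 CPM against 117.5 and 112.1 CPM (-1.68 ± 0.35, edgeR adjusted p = 0.0178). It was the 1 gene called of 26 processing genes tested in each type, beside 2.28% of all genes in nmSC and 1.82% in fibro, a share too near this background to say anything of the list. DESeq2 called 0 of them in each. Of 9 collagen receptors, such as the integrin chain Itgb1 and Ddr2, 2 were tested in nmSC under the label and 5 in nmSC between strains, and 0 passed in edgeR (0 and 1 with an unadjusted p under 0.05) or in DESeq2.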

How the data were processed

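For each species the authors deposited a matrix of raw UMI counts (9 mouse and 2 rat libraries) and a table that names the type of every annotated cell. Cell Ranger 3.0.2 and the builds mm10 and Rnor_6.0 stand in the submitters' processing notes. The sources used here do not say how types were named or how doublets and free RNA were treated. No doublet caller was run; cells above 3 times the median UMI count of their library and type (1.15% in mouse, 0.494% in rat) were left out in an alternative.

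Members follow the name rule; they and the lists were chosen with earlier results of these data known. Counts were summed per sample and type (Python 3.11.15, pandas 2.3.3, scipy 1.17.1, numpy 2.4.6). Types with at least 20 cells in every sample were tested with edgeR 4.0.16 (R 4.3.3), using TMM factors, filterByExpr at its minimum count of 10, the quasi-likelihood test and Benjamini-Hochberg adjustment over all genes tested. DESeq2 1.42.0, other scalings and filters, equal cell numbers and leaving out each sample served as alternatives. The fits were also run on simulated data, whose outcome is not reported here and on which no statement rests. Genes named are those past the threshold, the 3 chains with the highest CPM of a type, and chains with at least 10 UMIs and 4 times the CPM of every other type; a few further chains and processing genes with their values were chosen after these were seen. Coordinates are of GENCODE M21 (mm10). Figures were drawn with matplotlib 3.10.9.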

Additional observations from a re-analysis of the deposited data

Results flagged for a closer look

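For 5 chains the change with the knockout label differed between nmSC and mySC by the test of that difference (edgeR). The change in nmSC minus that in mySC, on the log2 scale, was -2.1 for Col18a1, -1.69 for Col3a1, -1.68 for Col5a2, -2.49 for Col6a1 and -2.92 for Col8a1. NOD control 1 contributes 20 mySC cells with 13094 UMIs to these values.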

How the results depend on the processing

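Under the knockout label in nmSC, 6 chains fell; 0 did with the knockout-labelled libraries summed as 1 sample, 2 with the same number of cells per sample (Col1a1 and Col6a1), 4 with DESeq2, and 0 to 10 when 1 sample was left out. A group left with 1 sample was assumed to vary like the other. In mySC the 2 rises became 0 with DESeq2, no filter or equal cells and 1 with the libraries summed, and 0 to 2 without 1 sample; the 1 fall became 0 with total UMI scaling, DESeq2, no filter, equal cells, the libraries summed or cells of very high UMI count left out, and 0 to 1 without 1 sample. In endothelial cells 0 calls became 3 with no filter and 2 with the libraries summed. The 5 differences between nmSC and mySC became 0 with DESeq2 or no filter, and 0 to 7 without 1 sample. Between strains, 0 calls in nmSC became 2 with control libraries 2-1 and 2-2 separate, 2 with total UMI scaling and 1 with no filter, and 0 to 1 without 1 sample. The 1 call in endothelial cells became 0 with DESeq2, 0 with equal cells, where no chain was tested, and 0 to 2 without 1 sample. The causes were not tested.

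With the replicate number as a block, 5 of the 6 falls in nmSC passed and 0 of the 3 calls in mySC. Deviations from the group mean of same-numbered samples correlated at 0.109 and -0.0195 in nmSC, at -0.0372 and 0.0011 in mySC and at 0.118 and 0.0441 in endothelial cells. With 2 controls, the deviations of 1 control mirror those of the other, so these values cannot show or exclude pairing. Over the 15 calls on single chains, 103 of 178 alternative values kept the call, 75 lost it and 0 reversed. Alternatives in which a chain was not tested or had no adjusted p are not among the 178. Total UMI scaling moved the median of all genes in mySC from 0.02 to 0.29 and the calls from 96 higher and 99 lower to 179 and 82. Between strains the same scaling moved calls in nmSC from 69 higher and 106 lower to 60 and 164, and in fibro from 42 and 45 to 30 and 50.

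All collagen chains in nmSC of NOD control went from 18030 CPM to 17150 after subtraction of the lymphocyte level and to 18000 without cells of very high UMI count. In rat they went from 28100 to 25790 in nmSC and from 35160 to 32860 in fibro after the subtraction, and to 34550 in fibro without those cells. Depth limits most what is said of mySC and endothelial cells, where many values rest on fewer than 10 UMIs.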
